A study of Homo sapiens with 36 samples.

Results

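The change in vehicle alone was measured as the RNA of BxPC-3 cells after 4 h in DMSO against that after 2 h in DMSO, in 3 libraries at each time. These are 6 of the series' 36 libraries, and all 14988 genes that passed a filter on low counts, of 29744 genes in the count table, enter the comparison. BxPC-3 is an established human pancreatic adenocarcinoma line, labelled wild type in every group. The 5 compounds of the other libraries, each at 3 µM and at the same 2 times with 3 libraries a group, were JQ1, MS78, TRAP1, TRAP-1-NegP and TRAP-1-NegB. Cells were grown in wells of 6-well plates in medium with serum, and polyadenylated RNA was sequenced. DMSO is the solvent in which such compounds are commonly given, and its 4 h and 2 h libraries are the references against which the 5 compounds can be set. The groups used here are DMSO at 4 h and at 2 h, and, as changes over the same interval that share no library with DMSO, TRAP-1-NegB at 4 h and 2 h and MS78 at 4 h and 2 h.

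Cells in culture change over hours without any drug. Epithelial cells answer serum and growth factors with a brief wave of immediate early transcription factors, driven through the EGF receptor and MAP kinase. Genes of the cell cycle switch on in order, those of the G1/S transition under E2F and those of G2 and mitosis under the DREAM and MMB complexes with FOXM1. Heat shock chaperones respond within hours to heat and unfolded proteins. An untreated culture at the start of the interval was not analysed here, so each value compares 4 h with 2 h and no value refers to the start.

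The 6 libraries held between 18063430 and 21978231 estimated counts. Summed over 16 ductal and epithelial markers, of which 14 passed the filter, length-normalised abundances (TPM) were between 16964 and 18269 in DMSO 4 h libraries and between 14678 and 14919 in DMSO 2 h libraries. Mesenchymal markers summed to 17.6 to 21.8 TPM at 4 h and 17.7 to 20.7 TPM at 2 h, haematopoietic and endothelial markers to 28.7 to 30.7 TPM at 4 h and 24.3 to 28.3 TPM at 2 h, and acinar and islet markers to at most 0.219 TPM in any of the 6 libraries. The epithelial sums and the haematopoietic and endothelial sums were each higher at 4 h without overlap. Within the epithelial list, the keratin KRT17 had 3710, 3875 and 4071 TPM at 4 h and 3132, 3137 and 3239 TPM at 2 h, while the adhesion protein EPCAM had 79.6, 78.4 and 74.8 TPM at 4 h and 96.6, 89.0 and 101.8 TPM at 2 h, so the list did not move 1 way. The leukocyte marker PTPRC was listed at 0 in all 6 libraries. The part of these markers in the results below was not tested. The labels do not say whether replicates are separate cultures, so p-values measure only the spread between libraries, which may be technical. In such bulk RNA, fewer cells in a state and less RNA in each cell cannot be told apart.

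Between 2 h and 4 h in DMSO the widest change was a tilt across the whole transcriptome with base composition. Genes with GC-rich transcripts were higher at 4 h and genes with GC-poor transcripts were lower. Genes were sorted into 10 bins of like size by transcript GC content, which was known for 14072 genes (93.9%). In the lowest bin, with 30.9% to 40.2% GC, the median log2 fold change was −0.21, with 5 genes higher and 263 lower at adjusted p under 0.05. In the highest bin, with 62.3% to 74.7% GC, it was 0.28, with 409 genes higher and 5 lower. The medians climbed through every bin in between. Long transcripts were lower as well, with a median of −0.23 in the bin with the longest transcripts. Across genes, Spearman's rho between GC content and log2 change was 0.48, a description over 14072 genes of the same 6 libraries.

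Each library has its own slope of log2 library-scaled counts (CPM) on GC content, in log2 units per 10 percentage points of GC, relative to the mean of all 36 libraries. The slopes were 0.0543, 0.147 and 0.161 in DMSO 4 h libraries and −0.0437, −0.0703 and −0.0374 in DMSO 2 h libraries, with no overlap. Relative to the 6 DMSO libraries alone, the slope averaged 0.0856 ± 0.0579 at 4 h and −0.0856 ± 0.0174 at 2 h (SD, n = 3 each), a difference of 0.171. The two-sided exact permutation test gave p = 0.1, the smallest value that 3 libraries against 3 allow. The spread among 4 h libraries was the wider one, with replicate 1 the lowest of them.

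**Figure D1:**
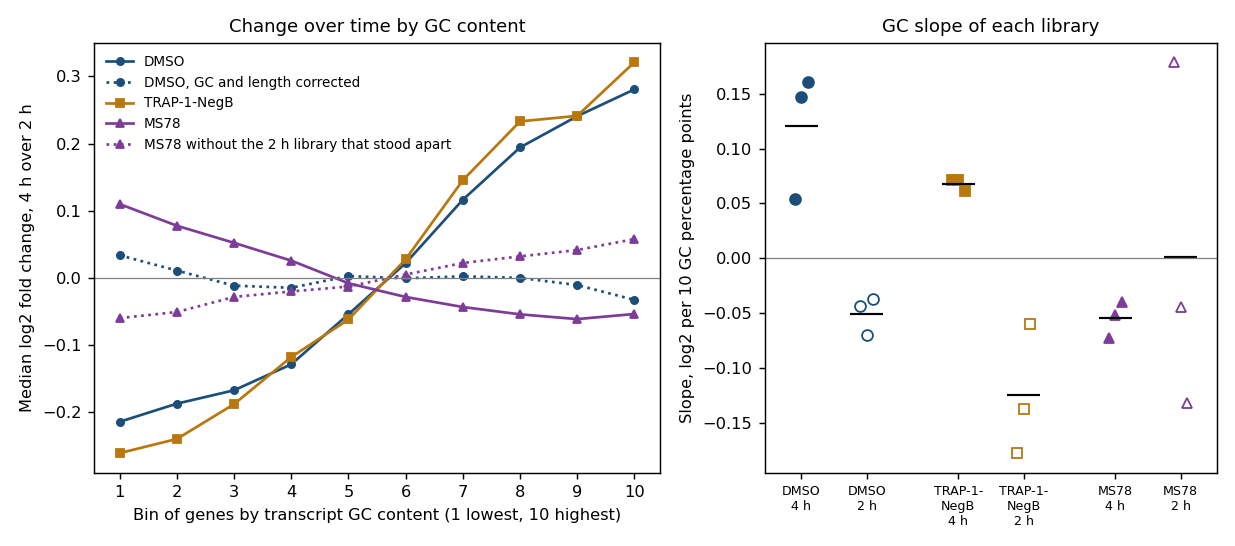
Left, median log2 fold change of 4 h over 2 h for genes in 10 bins of transcript GC content, in DMSO before and after correction, TRAP-1-NegB, and MS78 with and without its 2 h library that stood apart. The fit without that library also left out TRAP1 4 h replicate 1. Right, GC slope of each library in log2 per 10 percentage points, with group means as lines, 3 libraries a group. The DMSO 4 h libraries lie between 0.0543 and 0.161 and the DMSO 2 h libraries between −0.0703 and −0.0374, while MS78 2 h libraries span 0.179 to −0.132.

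The tilt was not particular to the vehicle. TRAP-1-NegB had slopes of 0.0714, 0.0715 and 0.0609 at 4 h and of −0.178, −0.138 and −0.0596 at 2 h. MS78 had slopes of −0.0726, −0.0513 and −0.0403 at 4 h and of 0.179, −0.0445 and −0.132 at 2 h, where replicate 1 stood apart and the 2 h libraries spread more widely than the DMSO groups differ. Whether the tilt arose in the cells, in the RNA or in library preparation was not tested. A GC and length correction per library, fitted across genes, reduced it in DMSO and left a rho of −0.04 with GC content. A small reverse tilt remained in the calls. The lowest GC bin then had 93 genes higher and 57 lower (median 0.03). The highest had 65 higher and 131 lower (median −0.03). Changes below are therefore given without and with that correction, called uncorrected and corrected. The correction also takes out any change in the cells that runs with GC content.

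At an adjusted p under 0.05 in edgeR's quasi-likelihood test, 1704 genes were higher and 1417 lower in DMSO at 4 h than at 2 h, together 20.8% of the genes tested. Corrected, 893 were higher and 978 lower, together 12.5%. The fold changes were small in both, with 75 genes (0.5%) and 41 genes (0.274%) both called and changed at least 2-fold. The 3 libraries of 1 time did not overlap the 3 of the other in 37.6% of genes, so a lack of overlap alone sets no gene apart. Of the called genes, 1179 were called in the same direction in both fits, 6 in opposite directions, 1936 only without and 686 only with the correction.

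Mitotic genes rose. The list of 56 tested genes of G2 and mitosis held 31 genes that rose and 1 that fell, with a median log2 change of 0.28 against 0.01 over all tested genes. Corrected, 47 rose and 1 fell, with a median of 0.35 against 0.00. The background for rises was 11.4% of genes uncorrected and 5.96% corrected. Summed over the list, normalised counts were 7231, 7096 and 6980 CPM in DMSO 4 h libraries and 5948, 5979 and 5901 CPM in DMSO 2 h libraries, without overlap.

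Promoters of 3 mitotic genes that rose are printed as the 150 bases before the RefSeq start (GRCh38.p14, plus strand). Capitals mark the core of the cell cycle genes homology region, TTTGAA, and the CCAAT box, CCAAT, each searched on both strands. These are the elements through which DREAM, MMB and NF-Y are known to act on such genes. 
CCNB2, chr15:59104996-59105145: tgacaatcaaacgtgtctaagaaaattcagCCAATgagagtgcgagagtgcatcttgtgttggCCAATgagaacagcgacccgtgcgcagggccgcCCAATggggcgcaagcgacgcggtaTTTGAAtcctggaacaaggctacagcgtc
PLK1, chr16:23678739-23678888: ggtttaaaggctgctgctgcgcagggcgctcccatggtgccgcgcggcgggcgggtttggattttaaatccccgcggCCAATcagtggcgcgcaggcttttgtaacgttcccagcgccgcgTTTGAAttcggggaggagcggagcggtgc
CDC20, chr1:43358831-43358980: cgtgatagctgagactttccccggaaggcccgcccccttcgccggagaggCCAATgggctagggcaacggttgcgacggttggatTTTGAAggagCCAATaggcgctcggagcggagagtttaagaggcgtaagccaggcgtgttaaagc
All 3 windows hold both elements close to the start. TTTGAA was in 21 of 45 G2 and mitotic promoters that matched the RefSeq table by symbol (46.7%), against 7.44% of all 27305 promoters in the table and 1 of 44 promoters of the G1/S list. CCAAT was in 31 of the 45 (68.9%), against 24.4% of all promoters and 22 of the 44. A match is a run of letters and no evidence of binding.

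CCNB1 (chr5:69167010-69178245), the cyclin that activates CDK1 for entry into mitosis, had 262, 253 and 246 CPM in DMSO 4 h libraries and 176, 179 and 173 CPM in DMSO 2 h libraries. The times did not overlap. Its log2 change was 0.53 ± 0.05 (SE, adjusted p = 2.87e-10), and 0.61 corrected. It was named after its values had been seen, as was CCNB2, its paralogue, which had 94.3, 95.7 and 85.8 CPM at 4 h and 63.9, 71.6 and 58.3 CPM at 2 h, a log2 change of 0.51, and 0.59 corrected.

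PLK1, the kinase that drives mitotic entry and spindle assembly, had 220, 240 and 229 CPM in DMSO 4 h libraries and 142, 138 and 143 CPM in DMSO 2 h libraries (log2 change 0.71, adjusted p = 6.53e-11, and 0.59 corrected). CDC20, the activator of the anaphase-promoting complex, had 395, 414 and 403 CPM at 4 h and 262.5, 266.5 and 269 CPM at 2 h (0.60, and 0.40 corrected). UBE2C, that complex's ubiquitin-conjugating enzyme, had 242, 258 and 224 CPM at 4 h and 148, 158 and 154 CPM at 2 h (0.65, and 0.60 corrected). In all 3, every 4 h library was above every 2 h library.

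PTTG1, or securin, which holds back the separation of sister chromatids until anaphase, had 101, 99.96 and 95.3 CPM in DMSO 4 h libraries and 62.2, 63.1 and 56.8 CPM in DMSO 2 h libraries. Its corrected log2 change of 0.73 was the largest among the list's risers. PIF1, a DNA helicase, had 18.7, 19.5 and 18.4 CPM at 4 h and 9.65, 9.87 and 11.5 CPM at 2 h (0.87, and 0.62 corrected). HMMR, a spindle protein, had 44.2, 48.0 and 42.9 CPM at 4 h and 30.9, 35.3 and 34.8 CPM at 2 h (0.42, and 0.64 corrected). PSRC1, a spindle regulator outside the list, was among the 15 largest rises of called genes with at least 5 CPM and no overlap between the times, with 45.4, 51.2 and 50.9 CPM at 4 h and 25.8, 24.5 and 27.6 CPM at 2 h (0.92, and 0.74 corrected).

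The 29 mitotic genes that rose in both fits had a median transcript GC content of 48.8%, and the 18 that rose only when corrected had 39.9%. The correction raises the change of GC-poor genes in DMSO by construction, so this split is no finding about the list. MKI67, the proliferation antigen Ki-67, named after its values were seen, had 417, 365 and 386 CPM in DMSO 4 h libraries and 402, 401 and 395 CPM in DMSO 2 h libraries. These overlapped, and its log2 change was −0.04 uncorrected and 0.29 corrected (adjusted p = 7.39e-08), so its direction rests on the correction. The 1 gene that fell, CDC25A, is a phosphatase that also acts at G1/S. It had 39.5, 47.3 and 40.7 CPM at 4 h and 53, 51.2 and 57.0 CPM at 2 h (−0.34, and −0.40 corrected). The uncorrected call of CDC25A was lost without DMSO 2 h replicate 3 (−0.31), 4 h replicate 1 (−0.31) or 4 h replicate 3 (−0.31).

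Genes of the G1/S transition and DNA replication fell more often than they rose. Of 54 tested, 5 rose and 18 fell (median −0.18, background for falls 9.45%). Corrected, 2 rose and 13 fell (median −0.09, background 6.53%), and the 13 became 8 without 4 h replicate 3. Summed counts of the list were 4878, 4855 and 4790 CPM in DMSO 4 h libraries and 4998, 5087 and 5009 CPM in DMSO 2 h libraries, without overlap.

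The cyclins that drive CDK2 at G1/S were among those that fell. CCNE2 had 21.9, 16.7 and 17.9 CPM in DMSO 4 h libraries and 30.2, 28.4 and 26.9 CPM in DMSO 2 h libraries (−0.60, adjusted p = 4.34e-04, and −0.38 corrected). CCNE1, named after its values were seen, had 16.6, 20.3 and 20.2 CPM at 4 h and 27.8, 26.5 and 26.8 CPM at 2 h (−0.51, and −0.51 corrected). Neither gene's times overlapped.

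E2F1, a transcription factor of the G1/S wave, also named after its values were seen, had 45.4, 42.4 and 51.7 CPM in DMSO 4 h libraries and 55.7, 56.5 and 60.2 CPM in DMSO 2 h libraries, a log2 change of −0.30 (adjusted p = 0.0325). Its corrected change was −0.57 (adjusted p = 8.91e-07). Without 2 h replicate 3 (−0.29), 4 h replicate 1 (−0.31) or 4 h replicate 2 (−0.24) its uncorrected call was lost. TK1, the thymidine kinase of the salvage route and an E2F target that is kept through G2, went against the list with 241, 263 and 258 CPM at 4 h and 182, 184 and 191 CPM at 2 h (0.45, and 0.16 corrected). With the correction, the call of TK1 was lost without 2 h replicate 1 (0.12) or 4 h replicate 1 (0.12).

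Immediate early transcription factors fell more often than they rose. Of 27 tested, 3 rose and 5 fell uncorrected, and 1 rose and 11 fell corrected (median −0.22). Over all tested genes, 11.4% rose and 9.45% fell uncorrected, and 5.96% rose and 6.53% fell corrected. The 5 uncorrected falls became 3 without 2 h replicate 1, 2 h replicate 2 or 4 h replicate 1 and 2 without 2 h replicate 3 or 4 h replicate 2, while the corrected ones became 9 or 10 without any single DMSO library. The summed counts overlapped, at 1349, 1455 and 1523 CPM in DMSO 4 h libraries and 1464, 1354 and 1463 CPM in DMSO 2 h libraries. The 6 genes that fell only when corrected had a median GC content of 63.4%. The correction lowers the change of GC-rich genes in DMSO by construction.

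CSRNP1, an AXIN1-induced nuclear factor, had 11.2, 16.6 and 16.2 CPM in DMSO 4 h libraries and 24.8, 23.2 and 22.4 CPM in DMSO 2 h libraries (−0.68, adjusted p = 3.58e-05, and −0.87 corrected). EGR1, a zinc finger factor induced by serum through MAP kinase, had 10.4, 12.9 and 15.1 CPM at 4 h and 16.7, 18.0 and 18.2 CPM at 2 h (−0.46, and −0.55 corrected). FOS, the AP-1 subunit, had 16.0, 15.6 and 15.9 CPM at 4 h and 18.6, 19.5 and 20.6 CPM at 2 h. Its log2 change was −0.30 (adjusted p = 0.0352) and −0.57 corrected (adjusted p = 2.85e-05). The times of these 3 genes did not overlap, but the uncorrected call of FOS was lost without 2 h replicate 2 (−0.32), 2 h replicate 3 (−0.28), 4 h replicate 2 (−0.29) or 4 h replicate 3 (−0.30).

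The EGR1 promoter, shown because the gene is a classic serum marker, holds 2 CArG boxes, the element bound by serum response factor, in capitals in the 150 bases before its start (RefSeq, GRCh38.p14, plus strand, both strands searched).
EGR1, chr5:138465329-138465478: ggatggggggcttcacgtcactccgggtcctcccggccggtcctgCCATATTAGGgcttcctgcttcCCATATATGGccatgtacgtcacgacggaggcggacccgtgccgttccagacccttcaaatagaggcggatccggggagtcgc
A CArG box was in 2 of 21 matched immediate early promoters (9.52%) and in 0.765% of all promoters.

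EGFR, the EGF receptor, fell as well. It (chr7:55019021-55211628) had 81.7, 65.4 and 77.2 CPM in DMSO 4 h libraries and 139, 131 and 138 CPM in DMSO 2 h libraries, without overlap (−0.86 ± 0.08 SE, adjusted p = 4.23e-11, and −0.87 corrected). The DMSO 2 h level was the high one of the series, since every library of the other 10 groups lay between 40.8 and 102 CPM. TGFA, a ligand of the receptor, had 98.1, 86.5 and 87.8 CPM at 4 h and 123, 125 and 121 CPM at 2 h (−0.43, and −0.52 corrected). AREG, another ligand, had 56.0, 63.2 and 51.0 CPM at 4 h and 63.2, 66.5 and 64.8 CPM at 2 h, and its change of −0.19 was not called (adjusted p = 0.0627, and 0.498 corrected). DUSP6, the phosphatase by which MAP kinase limits itself, had 150, 144.5 and 140 CPM at 4 h and 171, 171 and 182 CPM at 2 h (−0.27, and −0.29 corrected). Over the 25 tested genes of MAP kinase and EGFR feedback, 1 rose and 4 fell uncorrected and 1 rose and 8 fell corrected. The 4 became 2 without 4 h replicate 1, and the 8 became 5 without 4 h replicate 3. Among all tested genes, 11.4% rose and 9.45% fell uncorrected, and 5.96% rose and 6.53% fell corrected. Summed counts of this list overlapped, at 1681, 1713 and 1693 CPM in DMSO 4 h libraries and 1712, 1734 and 1737 CPM in DMSO 2 h libraries.

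Targets of YAP and TEAD, the transcription factors of the Hippo pathway that respond to density and adhesion, fell where they were called. Of 23 tested, 0 rose and 11 fell (median −0.24), and corrected, 0 rose and 7 fell (median −0.19). The background was 11.4% of genes higher and 9.45% lower uncorrected, and 5.96% higher and 6.53% lower corrected. Summed counts were 2392, 2283 and 2346 CPM in DMSO 4 h libraries and 2807, 2820 and 2812 CPM in DMSO 2 h libraries, without overlap. CRIM1, a membrane protein that binds bone morphogenetic proteins, had 38.1, 29.8 and 31.7 CPM at 4 h and 49.3, 48.2 and 45.4 CPM at 2 h (−0.52, and −0.50 corrected). NT5E, the ecto-nucleotidase CD73, had 186, 179 and 179 CPM at 4 h and 234, 235 and 227 CPM at 2 h (−0.35, and −0.26 corrected).

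**Figure D2:**
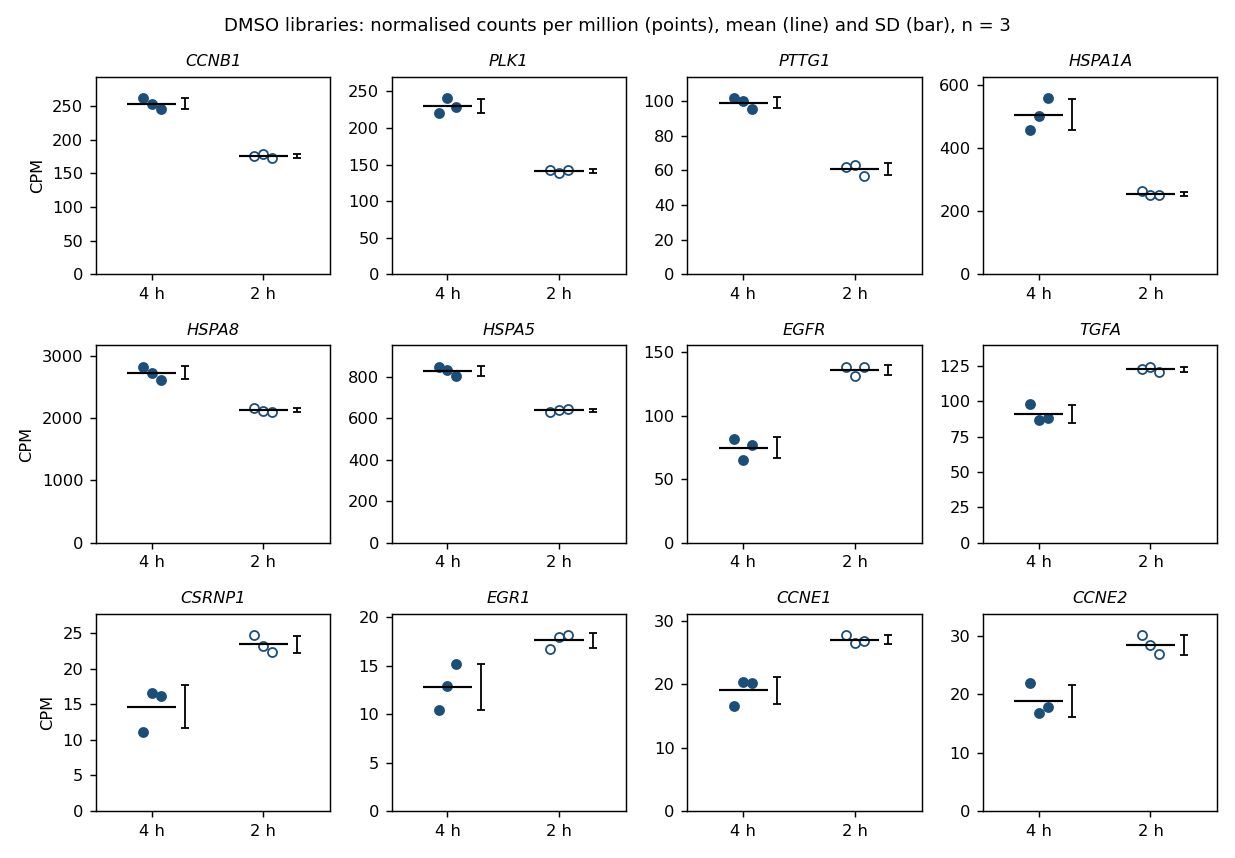
Normalised counts (CPM) of 12 genes in each DMSO library, 4 h filled and 2 h open, with the mean as a line and the SD as a bar beside it (n = 3). In every panel the 4 h libraries lie to 1 side of the 2 h libraries, above them for CCNB1, PLK1, PTTG1, HSPA1A, HSPA8 and HSPA5 and below them for the other 6.

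Heat shock chaperones rose more often than they fell. Of 23 tested, 10 rose and 1 fell, and corrected, 11 rose and 0 fell (median 0.15). The background was 11.4% of genes higher and 9.45% lower uncorrected, and 5.96% higher and 6.53% lower corrected. Summed counts were 12798, 12547 and 12362 CPM in DMSO 4 h libraries and 11106, 11267 and 10960 CPM in DMSO 2 h libraries. HSPA1A, the inducible HSP70, had 458, 501 and 557 CPM at 4 h and 263, 252 and 252 CPM at 2 h. Its log2 change was 0.98 ± 0.10 (SE, adjusted p = 4.81e-08) and 0.76 corrected, and all 4 h libraries stood above all 2 h libraries. Its near-identical copy HSPA1B had 362, 344 and 381 CPM at 4 h and 206, 204 and 212 CPM at 2 h (0.81, and 0.61 corrected), and the division of reads between the copies is uncertain.

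The small heat shock protein HSPB1 had 285, 345 and 358 CPM in DMSO 4 h libraries and 168, 173 and 180 CPM in DMSO 2 h libraries (0.92, and 0.61 corrected). HSPA8, the constitutive HSP70, had 2830, 2727 and 2621 CPM at 4 h and 2157, 2123 and 2097 CPM at 2 h (0.36, and 0.40 corrected). HSPA5, the chaperone BiP of the endoplasmic reticulum, had 848, 830 and 801 CPM at 4 h and 628, 640 and 644 CPM at 2 h (0.37, and 0.56 corrected). The list of the unfolded protein response, to which HSPA5 belongs, did not move 1 way, with 9 of 25 genes higher and 6 lower uncorrected, and 5 higher and 4 lower corrected. The 4 became 2 without 4 h replicate 3. Shares over all tested genes were 11.4% higher and 9.45% lower uncorrected, and 5.96% higher and 6.53% lower corrected.

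The HSPA1A promoter holds in its last 150 bases 1 match, in capitals, to GAANNTTC, paired units of the heat shock element bound by HSF1 (RefSeq, GRCh38.p14, plus strand, both strands searched).
HSPA1A, chr6:31815393-31815542: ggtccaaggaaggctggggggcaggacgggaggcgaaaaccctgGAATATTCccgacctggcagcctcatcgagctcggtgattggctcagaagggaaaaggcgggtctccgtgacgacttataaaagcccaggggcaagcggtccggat
Such a match was in 6 of 21 matched chaperone promoters (28.6%) and in 3.25% of all promoters.

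Genes of the ribosome and the respiratory chain rose more often than they fell, though most of the respiratory chain was not called. The background was 11.4% of genes higher and 9.45% lower uncorrected, and 5.96% higher and 6.53% lower corrected. Of 83 cytosolic ribosomal protein genes, 48 rose and 1 fell, and corrected, 36 rose and 6 fell (median 0.15). The list summed to 86521, 94018 and 91306 CPM in DMSO 4 h libraries and 79628, 81981 and 79607 CPM in DMSO 2 h libraries. RPSA, of the small subunit, had 2195, 2373 and 2333 CPM at 4 h and 1671, 1649 and 1642 CPM at 2 h (0.48, and 0.41 corrected). RPS4X, also of the small subunit, had 1671, 1755 and 1717 CPM at 4 h and 1380, 1399 and 1310 CPM at 2 h (0.33, and 0.38 corrected).

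Of 76 nuclear genes of the respiratory chain, 26 rose and 0 fell, and corrected, 19 rose and 4 fell (median 0.14). The 26 became 17 without 2 h replicate 1 or without 2 h replicate 3, and the 19 became 12 without 2 h replicate 3 or without 4 h replicate 2. ATP5G1, of the ATP synthase ring, had 99.1, 120 and 124 CPM in DMSO 4 h libraries and 77.9, 72.6 and 80.8 CPM in DMSO 2 h libraries (0.57, and 0.45 corrected).

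Glycolysis and the hypoxia response were listed together, and their members parted. Of 34, 10 rose and 6 fell, and corrected, 7 rose and 5 fell. Shares over all tested genes were 11.4% higher and 9.45% lower uncorrected, and 5.96% higher and 6.53% lower corrected. ENO1, enolase, had 5055, 5418 and 5266 CPM in DMSO 4 h libraries and 3721, 3714 and 3703 CPM in DMSO 2 h libraries (0.50, and 0.43 corrected). GAPDH, often used as a constant reference, had 8885, 9483 and 9053 CPM at 4 h and 6480, 6650 and 6559 CPM at 2 h (0.48, adjusted p = 2.87e-10, and 0.28 corrected). VEGFA, an angiogenic factor induced by hypoxia, had 88.3, 78.4 and 82.2 CPM at 4 h and 108, 108 and 99.8 CPM at 2 h (−0.35, and −0.63 corrected). The cytokeratin KRT19 had 3038, 3358 and 3460 CPM at 4 h and 2293, 2303 and 2260 CPM at 2 h, and its log2 change of 0.52 shrank to 0.22 when corrected.

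**Figure D3:**
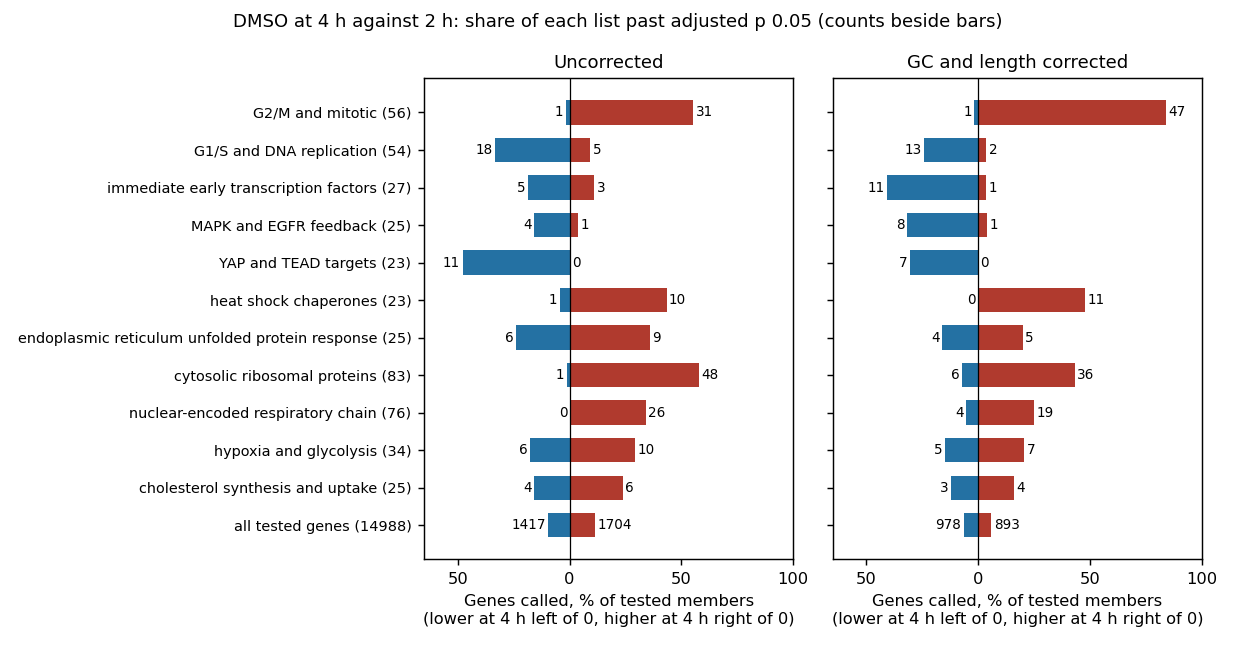
Share of the tested members of 11 lists and of all 14988 tested genes that passed adjusted p 0.05 in DMSO at 4 h against 2 h, uncorrected at left and corrected at right, with lower genes left of 0, higher genes right of 0 and counts beside the bars. The mitotic list has 31 higher and 1 lower uncorrected and 47 higher and 1 lower corrected, against 1704 higher and 1417 lower, and 893 higher and 978 lower, over all genes.

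Several genes often followed in such experiments were called in no more than 1 of the fits in the vehicle. The CDK inhibitor CDKN1A had 161, 156 and 166 CPM in DMSO 4 h libraries and 163, 169 and 153 CPM in DMSO 2 h libraries. These overlapped, with a log2 change of −0.01 uncorrected, which was called lower at −0.20 when corrected (adjusted p = 2.98e-05). HEXIM1, the inhibitor of P-TEFb used to follow BET inhibition, had 61.6, 62.5 and 62.4 CPM at 4 h and 53.3, 67.9 and 58.3 CPM at 2 h and was not called in either fit (0.05, and 0.18 corrected).

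MYC had 111, 107 and 104 CPM in DMSO 4 h libraries and 92.6, 91.0 and 83.8 CPM in DMSO 2 h libraries. Its uncorrected rise of 0.27 (adjusted p = 0.00585) was lost when corrected (0.03, adjusted p = 0.870) and without 2 h replicate 3 (0.21). NFKBIA, the NF-kB inhibitor, changed by 0.24 (adjusted p = 0.050) and by 0.12 corrected (adjusted p = 0.435), and its uncorrected call was lost without any of 5 DMSO libraries, 2 h replicate 2 (0.21), 2 h replicate 3 (0.19), 4 h replicate 1 (0.22), 4 h replicate 2 (0.21) and 4 h replicate 3 (0.28). TXNIP, an arrestin that follows glucose, changed by −0.18 (adjusted p = 0.0238) and by −0.06 corrected (adjusted p = 0.584), and its uncorrected call was lost without 2 h replicate 3 (−0.17) or 4 h replicate 2 (−0.16).

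The clock genes PER1 (0.25, and −0.05 corrected) and NR1D1 (0.15, and −0.05 corrected), the chemokine IL8 (−0.57, and −0.39 corrected), the hyaluronan synthase HAS2 (−0.31, and 0.00 corrected) and the sterol sensor INSIG1 (−0.06, and 0.00 corrected) were not called in either fit. IL8 had 6.7, 5.5 and 6.4 CPM in DMSO 4 h libraries and 10.5, 8.2 and 8.8 CPM in DMSO 2 h libraries, without overlap.

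The largest rises and falls, chosen among genes of at least 5 CPM whose times did not overlap, were mostly in weakly expressed genes. TNFAIP8L1, a member of the TNFAIP8 family, had 31.3, 30.4 and 32.8 CPM in DMSO 4 h libraries and 15.7, 14.7 and 17.1 CPM in DMSO 2 h libraries (0.99, adjusted p = 9.46e-07, and 0.91 corrected). NCR3LG1, the B7-H6 ligand of a natural killer cell receptor, had 5.5, 2.7 and 3.5 CPM at 4 h and 9.3, 10.6 and 14.4 CPM at 2 h, the largest fall of this group (−1.55, adjusted p = 5.55e-05, and −1.30 corrected). Its DMSO 2 h level was the high one of the series, since all libraries of the compounds lay between 1.43 and 7.77 CPM. LPP, a focal adhesion protein, had 27.2, 22.2 and 27.1 CPM at 4 h and 49.3, 50.2 and 47.8 CPM at 2 h (−0.94, and −1.03 corrected). BCL2, the apoptosis inhibitor, averaged under 5 CPM and was therefore outside this group. It had 2.2, 2.7 and 3.0 CPM at 4 h and 4.9, 5.2 and 7.4 CPM at 2 h (−1.15, adjusted p = 0.00213). On length-scaled counts the change of BCL2 was −0.46 (adjusted p = 0.372).

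The same interval was then read in 2 compounds whose libraries are not shared with DMSO. Over all tested genes the background was 24% called for TRAP-1-NegB and 3.28% for MS78 uncorrected, and 13.5% and 4.88% corrected. Corrected, 7.7% of genes were called higher and 5.8% lower in TRAP-1-NegB, and 2% higher and 2.88% lower in MS78. Of the 893 genes that rose in DMSO when corrected, 82.1% had the same sign in TRAP-1-NegB and 59.9% in MS78, against 59.7% and 51.9% of all tested genes. Uncorrected, where the GC slopes enter, the shares for called rises were 95.4% in TRAP-1-NegB and 45.2% in MS78, for called falls 91.7% and 44.0%, and for all tested genes 71.0% and 46.8%. Of the 978 that fell, 72.0% had the same sign in TRAP-1-NegB and 60.5% in MS78. A further corrected fit left out MS78 2 h replicate 1 and TRAP1 4 h replicate 1, the pair of libraries that stood apart from their groups. It called another set of genes in DMSO, 983 higher and 1276 lower. Over that set the MS78 shares were 72.4% for rises and 68.8% for falls, against 55.6% for all genes. The TRAP-1-NegB shares were 75.7% for rises and 77.3% for falls, against 59.8% for all genes.

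Mitotic genes rose in both compounds as well. Corrected, 35 of the 56 mitotic genes rose and 1 fell in TRAP-1-NegB, and 34 rose and 1 fell in MS78, and 25 rose in DMSO, TRAP-1-NegB and MS78 alike. Their sum was 7326, 7402 and 7440 CPM in TRAP-1-NegB 4 h libraries and 6496, 6410 and 6270 CPM in its 2 h libraries, and 7730, 7651 and 7675 CPM in MS78 4 h libraries and 6289, 6420 and 6537 CPM in its 2 h libraries. G1/S genes fell in 23 cases and rose in 1 in TRAP-1-NegB, and fell in 14 and rose in 1 in MS78, where 8 fell and 0 rose without both libraries that stood apart. Immediate early factors fell in 12 cases and rose in 0 in TRAP-1-NegB, and fell in 10 and rose in 1 in MS78. Their difference from DMSO was called higher for 2 and lower for 2 of 27 with TRAP-1-NegB, and higher for 1 and lower for 5 with MS78, beside background shares for MS78 of 3.36% higher and 3.66% lower. HSPA1A changed by 0.61 in TRAP-1-NegB and by 0.90 in MS78, corrected. CCNB1 changed by 0.53 in TRAP-1-NegB and by 0.43 in MS78.

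**Figure D4:**
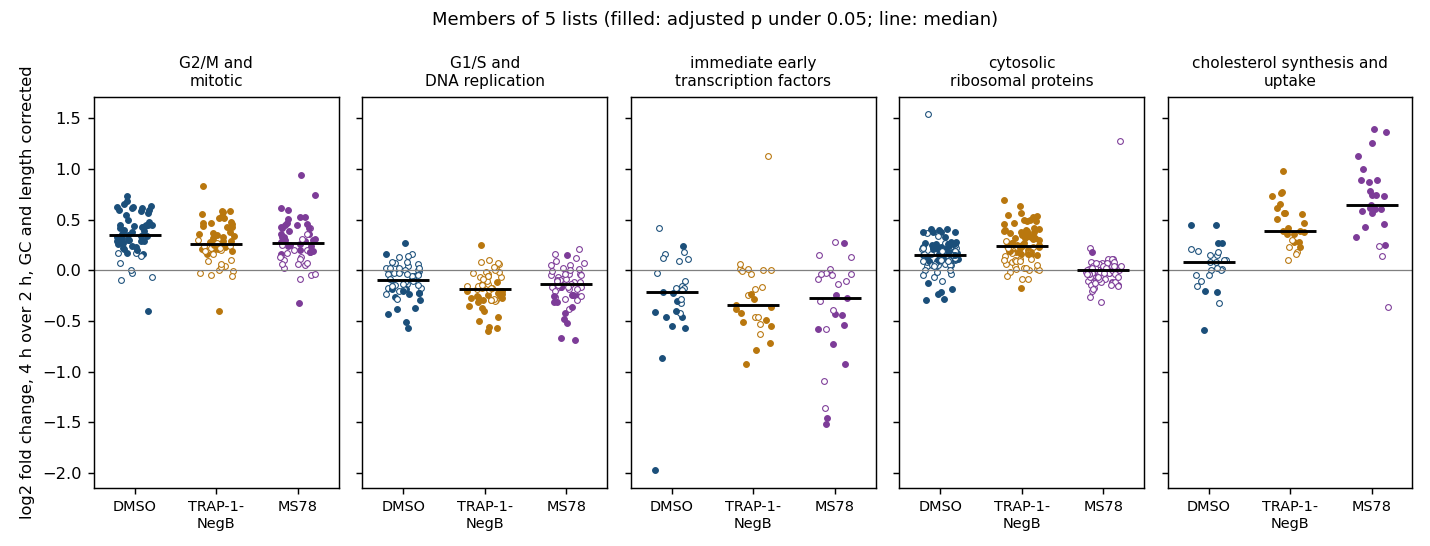
Corrected log2 fold change of 4 h over 2 h for every tested member of 5 lists in DMSO, TRAP-1-NegB and MS78, filled where adjusted p was under 0.05, with the list median as a line. Mitotic medians are 0.35, 0.26 and 0.27, while ribosomal protein medians are 0.15, 0.24 and 0.01 and cholesterol medians 0.08, 0.39 and 0.65.

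Other groups parted from the vehicle, tested as the difference between a compound's time change and that of DMSO, corrected. Both differences use the same DMSO libraries. The background was 4.46% of genes called for TRAP-1-NegB minus DMSO (2.96% higher, 1.5% lower) and 7.03% for MS78 minus DMSO (3.36% higher, 3.66% lower), against 2.48% and 15.2% uncorrected. Of 25 tested genes of cholesterol synthesis and uptake, 4 rose and 3 fell in DMSO (1 fell without DMSO 4 h replicate 3), whereas 20 rose in TRAP-1-NegB and 22 in MS78, and the difference from DMSO was positive and called for 12 genes with TRAP-1-NegB and for 20 with MS78. HMGCS1, which makes the precursor of mevalonate, had 72.9, 60.8 and 61.9 CPM in DMSO 4 h libraries and 75.2, 77.1 and 76.9 CPM in DMSO 2 h libraries. Its change was −0.23 uncorrected (adjusted p = 0.0349) and 0.02 corrected in DMSO, and 0.76 in TRAP-1-NegB and 0.89 in MS78. The uncorrected DMSO call of HMGCS1 was lost without 2 h replicate 2 (−0.24), 2 h replicate 3 (−0.24), 4 h replicate 2 (−0.18) or 4 h replicate 3 (−0.19).

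Ribosomal protein genes rose in 54 of 83 cases in TRAP-1-NegB and in 1 in MS78, and in MS78 they rose in 13 cases without both libraries that stood apart. Their sum was 76211, 75411 and 75942 CPM in MS78 4 h libraries and 84941, 70812 and 69874 CPM in MS78 2 h libraries. The overlap of the times in this sum rested on 2 h replicate 1. The difference of ribosomal protein genes from DMSO was called for 25 genes higher and 2 lower with TRAP-1-NegB and for 6 higher and 18 lower with MS78 (7 and 12 without both libraries). Respiratory chain genes rose in 39 of 76 cases in TRAP-1-NegB and in 0 in MS78, where 4 rose without both libraries. Against DMSO 15 were higher and 0 lower in TRAP-1-NegB, and 2 higher and 8 lower in MS78, which became 3 and 3 without both libraries. Among mitotic genes, the difference was called for 3 of 56 with TRAP-1-NegB and for 6 of 56 with MS78, of which 2 were higher and 4 lower (1 and 2 without both libraries).

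EGFR was a gene in which the vehicle differed from both compounds. Its corrected change was −0.87 in DMSO, −0.46 in TRAP-1-NegB and −0.03 in MS78, and the difference from DMSO was 0.41 for TRAP-1-NegB (adjusted p = 0.00625) and 0.84 for MS78 (adjusted p = 8.41e-09). VEGFA differed from DMSO by 0.63 in MS78 (adjusted p = 1.24e-04) and by −0.10 in TRAP-1-NegB (adjusted p = 0.769). CSRNP1 differed by 0.87 in TRAP-1-NegB (adjusted p = 1.28e-04) and by 0.33 in MS78 (adjusted p = 0.272). The change of HSPB1 was smaller than in DMSO in both, by −0.42 for TRAP-1-NegB (adjusted p = 6.88e-04) and by −0.43 for MS78 (adjusted p = 5.53e-04). For HSPA1A neither difference was called, at −0.15 ± 0.08 (SE) for TRAP-1-NegB (adjusted p = 0.386) and 0.14 ± 0.08 for MS78 (adjusted p = 0.363).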

How the data were processed

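RNA from BxPC-3 cells was measured by RNA-seq in 12 groups of 3 libraries. The authors' deposited gene-level estimated counts came from nf-core/rnaseq 3.18.0 and Salmon 1.10.3 on hg38, per the submitters' processing notes (annotation release not given in the sources used here). For marker levels only, the deposited TPM values, per the file headers, were read.

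Before testing, the estimated counts were rounded; they were then tested with edgeR 4.0.16 in R 4.3.3 (quasi-likelihood, TMM scaling, a minimum count of 10 in the filter, 36 libraries, 12 group means), with Benjamini-Hochberg adjustment over all 14988 tested genes and calls at 0.05. GC content and length came from GENCODE release 29 transcripts. The correction was a loess fit per library (span 0.5). CPM values are scaled by TMM. Slopes used log2(CPM + 1). The common biological coefficient of variation was 0.135.

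The members and the gene lists were chosen with earlier results of these data known. Named genes were the 15 largest rises and falls among called genes of at least 5 CPM whose times did not overlap, up to 4 members a direction of each list, a fixed panel, and the genes said to be named after their values were seen; those described are a selection of these. On simulated counts for this comparison with 14988 genes, 54%, 84% and 84% of genes changed 1.5-fold, 2-fold and 3-fold were recovered. With a GC trend added, 244 genes were called outside the changed set, against 7 after correction and 6 with no trend and no correction. The added trend was a straight line in GC content, which a fit on GC content removes by design. These counts therefore do not test the correction on the trend of the real libraries. DESeq2 1.42.0, other filters, length-scaled counts, a replicate block, fits of the compared groups alone and leaving out libraries were the alternatives.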

Additional observations from a re-analysis of the deposited data

Results flagged for a closer look

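Over 4 h against 2 h, 372 genes changed differently in TRAP-1-NegB than in DMSO (2.48% of genes tested) and 2282 changed differently in MS78 than in DMSO (15.2%), by an interaction test in edgeR; corrected for GC content and length the counts were 669 and 1053. Both tests use the same DMSO libraries, and Spearman's rho between GC content and the log2 change was −0.22 in MS78 against 0.48 in DMSO. In the fit without MS78 2 h replicate 1 and TRAP1 4 h replicate 1 it was 0.14 in MS78. Whether GC content accounts for the counts was not tested.

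For TRAP-1-NegB minus DMSO, the largest positive log2 differences were TRAPPC5 at 1.35 (1.31 corrected), BCYRN1 at 1.34 (1.25 corrected) and FAM195B at 1.22 (1.202 corrected). The largest negative ones were SNHG19 at −1.60 (−1.67 corrected), LOC642846 at −1.45 (−1.45 corrected) and LOC102723728 at −1.44 (−1.44 corrected). Uncorrected, TRAPPC5 changed by 1.22 in TRAP-1-NegB and −0.13 in DMSO, BCYRN1 by 1.49 and 0.15, and FAM195B by 1.03 and −0.19. SNHG19 changed by −1.50 in TRAP-1-NegB and 0.10 in DMSO, LOC642846 by −0.37 and 1.08, and LOC102723728 by 0.15 and 1.59.

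For MS78 minus DMSO, CYP1A1, a detoxifying enzyme under the aryl hydrocarbon receptor, differed by 2.02 (2.12 corrected), the sterol carrier STARD4 by 1.58 (1.32 corrected) and CYP1B1, another enzyme under that receptor, by 1.54 (1.59 corrected). LOC102723728 differed by −1.55 (−1.55 corrected), FAM63A by −1.51 (−1.34 corrected) and the AP-1 subunit FOSB by −1.47 (−1.29 corrected). Each of these differences had an adjusted p under 0.05 in both fits. Uncorrected, CYP1A1 changed by 1.25 in MS78 and −0.77 in DMSO, STARD4 by 1.09 and −0.49, and CYP1B1 by 0.97 and −0.57. LOC102723728 changed by 0.04 in MS78 and 1.59 in DMSO, FAM63A by −0.08 and 1.43, and FOSB by −1.51 and −0.04.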

How the results depend on the processing

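In DMSO the uncorrected count of 3121 stayed within 1.5 times under the other tools, filters, scalings and left-out libraries that used no correction, but became 1871 with the GC and length correction and 1846 with that correction and the replicate block. Replicate numbers paired the DMSO samples weakly if at all. Same-number correlations were 0.0319, −0.00178 and 0.0303, and different-number ones ran from −0.0364 to 0.00334. The block on all libraries ended the call of NFKBIA (adjusted p = 0.0566). TRAP-1-NegB had 2023 calls corrected and 1980 with the block added. MS78 had 46 calls in a fit of its own groups, 33 with the block there, 302 with the correction there, and 276 to 1132 without 1 library. For TRAP-1-NegB minus DMSO the counts were 651 with only the groups compared, 753 with the block added, 669 corrected, 664 corrected with the block, 721 without both libraries that stood apart, 1028 corrected with only the groups compared and 991 corrected without both libraries. For MS78 minus DMSO they were 823, 321, 1053, 1040, 1303, 722 and 744 under the same settings in the same order, and 1151 to 3389 without 1 library. Some log2 changes in DMSO turned direction. MKI67 became 0.0242 on length-scaled counts, 0.287 corrected, 0.287 with the block added, 0.263 corrected with only the groups compared, 0.275 corrected without both libraries that stood apart, and −0.107 to 0.00658 without 1 library. HMGCS1 became 0.0161 corrected, 0.0151 with the block added, 0.00352 without both libraries, and −0.0491 to 0.0431 corrected without 1 library. INSIG1 became 0.000754 corrected with the block, and −0.0984 to 0.0407 corrected without 1 library. PER1 became −0.0539, −0.0536, −0.0600 and −0.0663 and NR1D1 −0.0488, −0.0495, −0.0639 and −0.0609 when corrected, corrected with the block, with only the groups compared and without both libraries. HAS2 became 0.000679 corrected, and −0.0517 to 0.0491 without 1 library. MYC ranged from −0.0575 to 0.0814 corrected without 1 library, and uncorrected CDKN1A from −0.0633 to 0.0135 and HEXIM1 from −0.0410 to 0.141. The cause of these moves was not tested. Corrected fits without 1 library, without both libraries and with only the groups compared were added after the data were seen. On counts simulated at the depths of these libraries, 54% of 1.5-fold changes were recovered with 3 libraries a time. Other depths were not simulated, so the part of depth was not tested.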

Other observations

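Further lists were counted in the vehicle, corrected, where 5.96% of all tested genes were higher and 6.53% lower. Of 27 NRF2 targets, which guard against oxidants, 8 rose and 3 fell, with a median log2 change of 0.14. Of 42 p53 targets 1 rose and 6 fell (median −0.07), and of 23 clock genes 1 rose and 2 fell. Of 22 snoRNA host genes, whose introns carry small nucleolar RNAs, 5 rose and 1 fell in DMSO. In TRAP-1-NegB 0 rose and 5 fell, and in MS78 0 rose and 2 fell. Over all tested genes, 7.7% were higher and 5.8% lower in TRAP-1-NegB, and 2% and 2.88% in MS78. The difference from DMSO was called lower for 5 genes with TRAP-1-NegB and for 4 with MS78 (3 without both libraries that stood apart), and higher for 0 in either. Over all genes these differences were 2.96% higher and 1.5% lower, and 3.36% higher and 3.66% lower.

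LOC102723728 had 80.2, 86.2 and 81.2 CPM in DMSO 4 h libraries and 37.5, 20.7 and 24.0 CPM in DMSO 2 h libraries, a log2 change of 1.59 ± 0.16 (SE, adjusted p = 4.64e-08). Libraries of the other 10 groups lay between 58.1 and 142 CPM, so the DMSO 2 h group was the low one.

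HSPA1A levels set the groups apart as well. It had 1206 to 1343 CPM in JQ1 at 4 h and 599 to 608 CPM in JQ1 at 2 h. TRAP1 had 1124 to 1373 CPM at 4 h and 648 to 662 CPM at 2 h, and TRAP-1-NegP 1115 to 1168 and 631 to 635 CPM. DMSO had 458 to 557 CPM at 4 h and 252 to 263 CPM at 2 h. MS78 had 537 to 560 CPM at 4 h and 242 to 380 CPM at 2 h, and TRAP-1-NegB 519 to 551 and 273 to 326 CPM.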
